A study of Mus musculus with 2 samples.

Results

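Mir148a, Mir148b, Mir152, Mir101a and Mir101b are miRNA genes known for repressing enzymes that modify chromatin. They were taken by name from the GENCODE M21 annotation, and these 5 genes stood among 2202 annotated miRNA genes in the count tables. Small RNA was sequenced from adrenal gland tissue of B6CASTF1/J mice, an F1 hybrid between C57BL/6J and CAST/EiJ. All animals were untreated females at 14 days of age, as far as the labels say. The design held 1 group of 2 libraries and no second condition, so levels could be described but no condition could be compared. The label of replicate 1 names 3 females and that of replicate 2 a single numbered female, and both give the same donor, so how far the libraries stand for separate animals is not settled by the labels. In tissue of mixed cells, fewer cells of a type and less of a miRNA per cell cannot be told apart.

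A miRNA guides a silencing complex to messenger RNAs through its seed, bases 2 to 8 from its 5′ end, and miRNAs with the same seed can bind the same sites. The miR-148 family (Mir148a, Mir148b and Mir152) is known, from work in human cells, for repressing DNMT1, the enzyme that copies DNA methylation onto newly replicated strands. The miR-101 family is known, also from human cells, for repressing EZH2, the catalytic subunit of Polycomb repressive complex 2 (PRC2), which places a repressive methyl mark on histones. Messenger RNA and protein levels of these enzymes were not analysed here.

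The mature 3p sequences, taken from RefSeq on build GRCm38.p6, show which members share a seed. All 5 genes matched an entry. The seed stands in capitals, and Mir101c is shown because it repeats the core of miR-101a-3p:
miR-148a-3p: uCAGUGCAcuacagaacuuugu
miR-148b-3p: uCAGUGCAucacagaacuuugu
miR-152-3p: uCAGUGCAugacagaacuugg
miR-101a-3p: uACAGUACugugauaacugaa
miR-101b-3p: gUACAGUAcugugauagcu
miR-101c: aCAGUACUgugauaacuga

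The 3 miRNAs of the miR-148 family carried an identical seed, CAGUGCA, and no other mature miRNA in the RefSeq table had it. Counted from the 5′ end, miR-148a-3p differed from miR-148b-3p only by C9U and U10C, outside the seed. Against miR-152-3p it differed by C9U, U10G and U20G over the 21 bases that both have. The miR-101 entries were a near copy of each other with shifted ends. miR-101b-3p starts 1 base earlier than miR-101a-3p, so bases 2 to 8 read UACAGUA in miR-101b-3p and ACAGUAC in miR-101a-3p. In the 18 bases that both cover, the only difference was A16G, counted on miR-101a-3p. The 19 bases of miR-101c all lie within miR-101a-3p.

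Each gene yields a hairpin from which a 5p and a 3p arm are cut, and the deposited counts are per gene, so the arms were not told apart. The hairpins of the member with the highest mean level in each family show how the arms face each other, with both mature arms in capitals (in replicate 1 alone, Mir152 was above Mir148a):
Mir148a: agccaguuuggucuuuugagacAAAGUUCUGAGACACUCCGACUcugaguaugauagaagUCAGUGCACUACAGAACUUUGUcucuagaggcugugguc
Mir101b: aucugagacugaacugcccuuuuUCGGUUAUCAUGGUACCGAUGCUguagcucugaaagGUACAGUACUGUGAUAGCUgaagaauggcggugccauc

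The 5 genes lie on 5 chromosomes of build mm10 and none stood in a cluster: the nearest other miRNA gene was 65234 bases from Mir148b and farther from the rest. Mir148a (ENSMUSG00000065505.1) is intergenic, at chr6:51269812-51269910 on the minus strand. Mir148b (ENSMUSG00000065560.1), at chr15:103285125-103285221 on the plus strand, lies in an intron of Copz1. Mir152 (ENSMUSG00000065515.1), at chr11:96850393-96850465 on the plus strand, lies in an intron of Copz2. Copz1 and Copz2 are paralogs that encode the zeta subunit of the COPI vesicle coat, so the hosts of Mir148b and Mir152 are related as the miRNAs are. Mir101a (ENSMUSG00000065451.1), at chr4:101346945-101347027 on the minus strand, overlaps an exon of E130102H24Rik, a long noncoding RNA. Mir101b (ENSMUSG00000065556.1), at chr19:29135279-29135375 on the plus strand, lies in an intron of Rcl1, a gene of ribosomal RNA processing. Every host gene runs on the strand of its miRNA gene. No member had a miRNA gene on its opposite strand, and all 5 had 0 counts on that strand in both libraries.

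Of 10720796 reads in replicate 1, 3797107 were counted on miRNA genes, and of 11190481 in replicate 2, 5034257 were. Levels are given in CPM, counts scaled to a common total of miRNA counts. A mature miRNA is about as short as the read, so counts do not grow with gene length and genes were compared without length scaling. Of 11 marker genes of neuroendocrine, endothelial, stromal, liver, muscle, kidney, red cell and leukocyte origin, all 11 were detected. Together they held 22.9% of counts in replicate 1 and 40.9% in replicate 2. Mir122, the main miRNA of hepatocytes, held 0.290% in replicate 1 and 21.5% in replicate 2, more than the whole gap. No miRNA specific to adrenal cortex was among the markers, so the labelled tissue was checked only by 2 neuroendocrine markers. Mir375 was at 33797 CPM in replicate 1 and 17616 CPM in replicate 2, and Mir7-1 at 336 CPM in replicate 1 and 169 CPM in replicate 2. Mir7-1 is a numbered copy, with Mir7-2 as its partner. Reads that map to several places were not counted, so the level of Mir7-1 is uncertain.

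All 5 genes reached the detection minimum of 10 counts in both libraries, as did 358 of the 2202 genes. Together they held 0.265% ± 0.0514 of miRNA counts (SD, n = 2), with 0.301% in replicate 1 and 0.228% in replicate 2. Mir101b had the highest mean level, 1065 ± 374 CPM, and stood at rank 75 of the detected genes. Mir148a followed with 753 ± 201 CPM at rank 89, and Mir152 with 594 ± 224 CPM. Mir101a, at 131 ± 103 CPM and rank 175, and Mir148b, at 105 ± 14.4 CPM and rank 186, were close to the median detected gene, at 116 CPM. By mean level, each family thus had at least 1 gene well above the median detected gene and 1 gene near it. For Mir101a the mean joins unlike libraries, with rank 155 in replicate 1 and rank 204 in replicate 2.

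**Figure D1:**
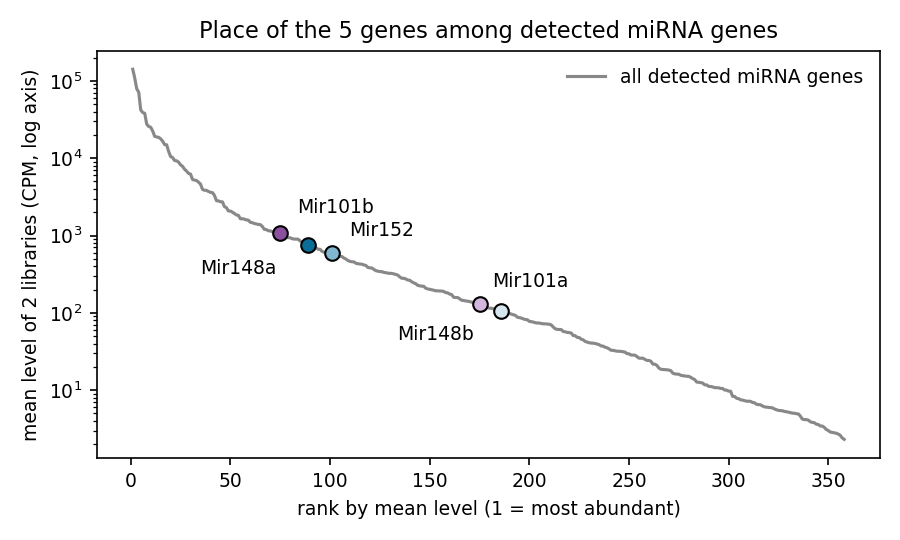
Mean CPM of 2 libraries (log axis) against rank for the 358 detected miRNA genes (line), with the 5 genes marked as points. Mir101b, Mir148a and Mir152 form an upper group that starts at rank 75, and Mir101a and Mir148b at ranks 175 and 186.

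Among the miR-148 genes, Mir148a had 2319 counts (611 CPM) in replicate 1 and 4509 counts (896 CPM) in replicate 2. Mir152 had 2858 counts (753 CPM) in replicate 1 and 2191 counts (435 CPM) in replicate 2. The higher of the 2 genes was therefore Mir152 in replicate 1 and Mir148a in replicate 2. Mir148b had 437 counts (115 CPM) in replicate 1 and 477 counts (94.8 CPM) in replicate 2, below both relatives in each library.

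Among the miR-101 genes, Mir101b had 5049 counts (1330 CPM) in replicate 1 and 4030 counts (801 CPM) in replicate 2. Mir101a had 774 counts (204 CPM) in replicate 1 and 295 counts (58.6 CPM) in replicate 2. Mir101b was the higher gene in both libraries. Mir101c had 0 counts in both. Its mature sequence lies whole within Mir101a as well, and multi-mapping reads were not counted, so the 0 sets no limit on its level.

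**Figure D2:**
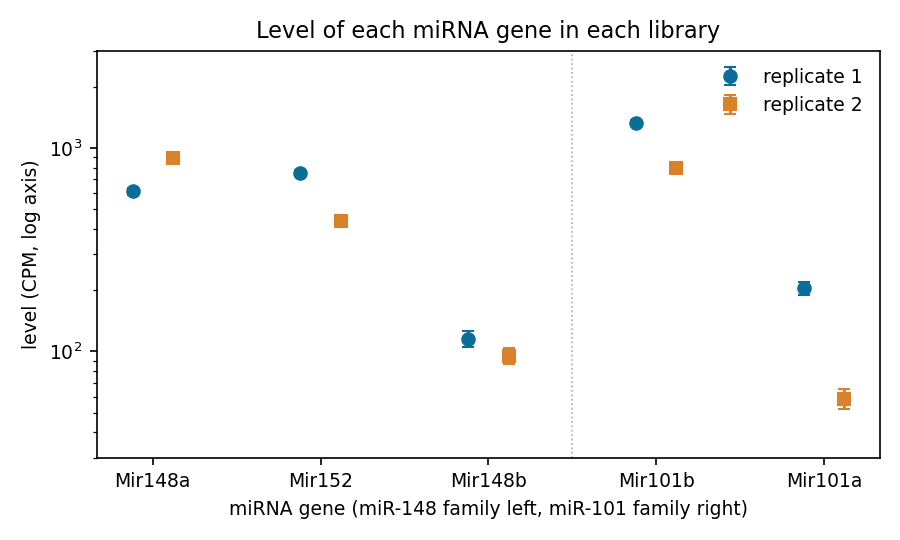
CPM of each gene (log axis) in replicate 1 (circles) and replicate 2 (squares), with Wilson 95% intervals of counting error, which are smaller than the symbol for the abundant genes. Mir148a is the 1 gene with a higher CPM in replicate 2, and Mir101a has the widest gap between the libraries.

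The order of mean levels was Mir101b, Mir148a, Mir152, Mir101a and Mir148b. Neighbours in it were not all separated: the ranges of the 2 libraries overlapped for Mir101b and Mir148a, for Mir148a and Mir152, and for Mir101a and Mir148b. They did not overlap for Mir152 and Mir101a. Each of the 3 upper genes was above both lower genes in each library. With 2 libraries for each gene no permutation test can reach a usual threshold, so these orders are descriptions.

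Ratios between genes of the same library do not depend on how libraries are scaled. Mir101b over Mir152 was the steadiest pair, at 1.77 in replicate 1 (exact Clopper-Pearson 95% interval 1.69 to 1.85) and 1.84 in replicate 2 (1.75 to 1.94). Mir148a over Mir152 was 0.811 in replicate 1 (0.768 to 0.857) and 2.06 in replicate 2 (1.96 to 2.17), a 2.54-fold change of the ratio. Mir148a over Mir101a moved most of the 10 pairs, at 3.00 in replicate 1 (2.76 to 3.25) and 15.3 in replicate 2 (13.6 to 17.3). The order itself turned between libraries in 3 pairs: Mir148a and Mir152, Mir101b and Mir148a, and Mir101a and Mir148b.

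Within the miR-148 family, the make-up therefore differed between the libraries. Mir148a supplied 41.3% (Wilson 95% interval 40.0 to 42.6) of the family's counts in replicate 1 and 62.8% (61.7 to 63.9) in replicate 2, a mean of 52.1% ± 15.2 (SD, n = 2). Mir152 supplied 50.9% in replicate 1 (49.6 to 52.2) and 30.5% in replicate 2 (29.5 to 31.6). Mir148b was the minor gene throughout, with 7.78% in replicate 1 (7.11 to 8.51) and 6.65% in replicate 2 (6.09 to 7.25). Shares of a family add up to its whole, so a higher share of Mir148a lowers the others whether or not their own levels differ.

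Within the miR-101 family, Mir101b supplied 86.7% (Wilson 95% interval 85.8 to 87.6) of the counts in replicate 1 and 93.2% (92.4 to 93.9) in replicate 2, a mean of 89.9% ± 4.58 (SD, n = 2). Mir101a supplied the remaining 13.3% in replicate 1 and 6.82% in replicate 2. The ratio of Mir101b to Mir101a was 6.52 in replicate 1 (Clopper-Pearson interval 6.05 to 7.04) and 13.7 in replicate 2 (12.1 to 15.4). These values carry a further uncertainty. Reads that map to several places, 28.0% of replicate 1 and 25.0% of replicate 2, were set aside before counting. The longest run of bases shared by the hairpins of Mir101a and Mir101b was 20, and that shared by Mir101a and Mir101c was 19, against 15 or fewer for any pair of a miR-148 gene with another miRNA gene. A read confined to such a run could be placed at both genes. The 19 bases of mature miR-101c lie whole within Mir101a, so Mir101a and Mir101c may be counted too low. The mature sequences of Mir101a and Mir101b given above differ at A16G, and a whole mature read covers that base. Loss between Mir101a and Mir101b thus concerns reads that miss this base, or placements that allow a mismatch. Mir101b may still be counted too low. The share of reads of Mir101a, Mir101b and Mir101c that was set aside was not tested. Every mature arm of the 5 genes occurs whole in only 1 annotated miRNA gene. The genome outside annotated transcripts was not searched, so loss of miR-148 reads to several placements was not tested.

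**Figure D3:**
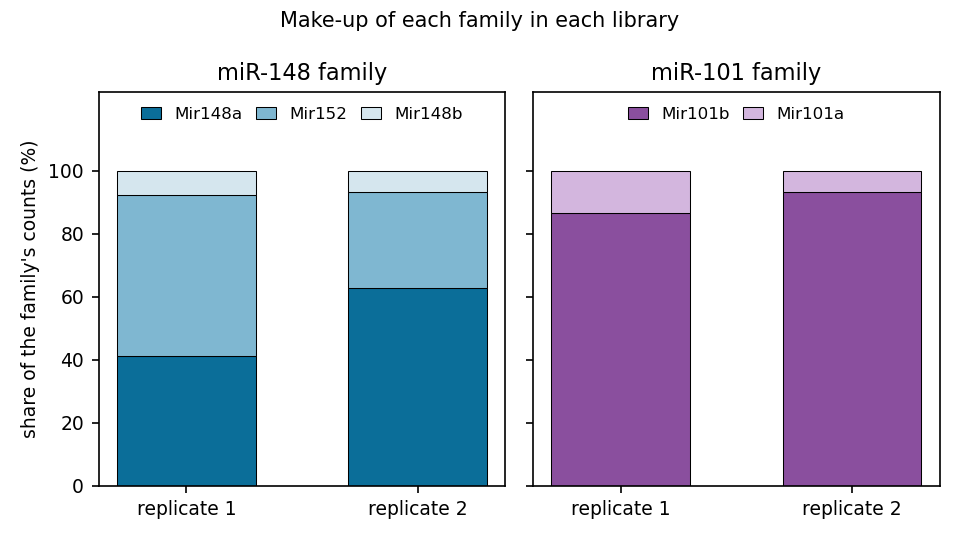
Share of each family's counts (percent) supplied by each gene in replicate 1 and replicate 2, as stacked bars. Mir148a takes 41.3% of its family in replicate 1 and 62.8% in replicate 2, and Mir101b takes 86.7% of its family in replicate 1 and 93.2% in replicate 2.

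Summed by family, the miR-148 genes held 0.148% (Wilson 95% interval 0.144 to 0.152) of miRNA counts in replicate 1 and 0.143% (0.139 to 0.146) in replicate 2. The miR-101 genes held 0.153% in replicate 1 (0.149 to 0.157) and 0.0859% in replicate 2 (0.0834 to 0.0885). The means were 0.145% ± 0.00374 for miR-148 and 0.120% ± 0.0477 for miR-101 (SD, n = 2 each). The near equality of the miR-148 share rested on the total, which Mir122 swelled in replicate 2. With Mir122 left out of the totals, the miR-148 share was 0.148% in replicate 1 and 0.182% in replicate 2, and the miR-101 share 0.154% in replicate 1 and 0.109% in replicate 2. In that setting the 5 genes together held 0.302% in replicate 1 and 0.291% in replicate 2.

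To set the members' differences beside those of all genes, a log2 ratio of replicate 1 over replicate 2 was taken after TMM scaling, which aligns the bulk of genes between libraries. A gene was called when the ratio was at least 2-fold, with no p-value, since each side is 1 library. Among the 5 genes, 1 was called higher in replicate 1, 0 lower and 4 were within 2-fold. Of the 358 detected genes, 17.9% were called, 8.66% as higher in replicate 1 and 9.22% as lower. In this setting the share among the 5 genes is near the background, and 5 genes are too few to set them apart.

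Mir101a was the called gene, with a log2 ratio of 1.37 (exact 95% counting interval 1.17 to 1.57), or 2.58-fold higher in replicate 1. Mir148a stood just inside the limit on the other side, at -0.98 (-1.06 to -0.91), and its interval crosses the 2-fold line. With TMM factors taken over all genes of the tables it was -1.004 and counted as called. Mir152 was at 0.36 (0.28 to 0.44) and Mir101b at 0.30 (0.24 to 0.36), while the interval of Mir148b, at -0.15 (-0.34 to 0.04), spans 0 and its ratio turned to 0.28 under library totals. Which of Mir148a and Mir152 differed more between libraries depended on the scaling, since library totals put them at -0.55 and 0.79. Across all detected genes the median was 0.06, with quartiles at -0.41 and 0.51. As sums the families lay on opposite sides of 0, with -0.38 (-0.43 to -0.33) for miR-148 and 0.41 (0.35 to 0.46) for miR-101, but under library totals in place of TMM the miR-148 sum stood at 0.05 and the miR-101 sum at 0.84, so the sign of the miR-148 sum depends on the scaling. The coefficient of variation between replicates that edgeR estimated over the detected genes was 0.444, and these counting intervals do not include that spread.

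Markers of other cells moved between the libraries as well. Mir122, Mir192 of kidney, gut and liver, Mir206 of skeletal muscle and Mir145a of smooth muscle were lower in replicate 1, at log2 ratios of -6.64, -4.28, -6.22 and -1.27. Smooth muscle had no single direction, since Mir143, its other marker, was at 0.13. Mir451a of red blood cells and Mir142 of leukocytes were higher in replicate 1, at 2.03 and 1.44, while Mir150, the other leukocyte marker, was at -0.61. In all, 5 of the 11 markers lay within 2-fold, Mir143 and Mir150 among them. miR-148a is known as an abundant miRNA of liver, and Mir148a and Mir122 were both lower in replicate 1. Whether cells of other tissues contributed to the ratios of Mir148a or Mir101a was not tested.

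**Figure D4:**
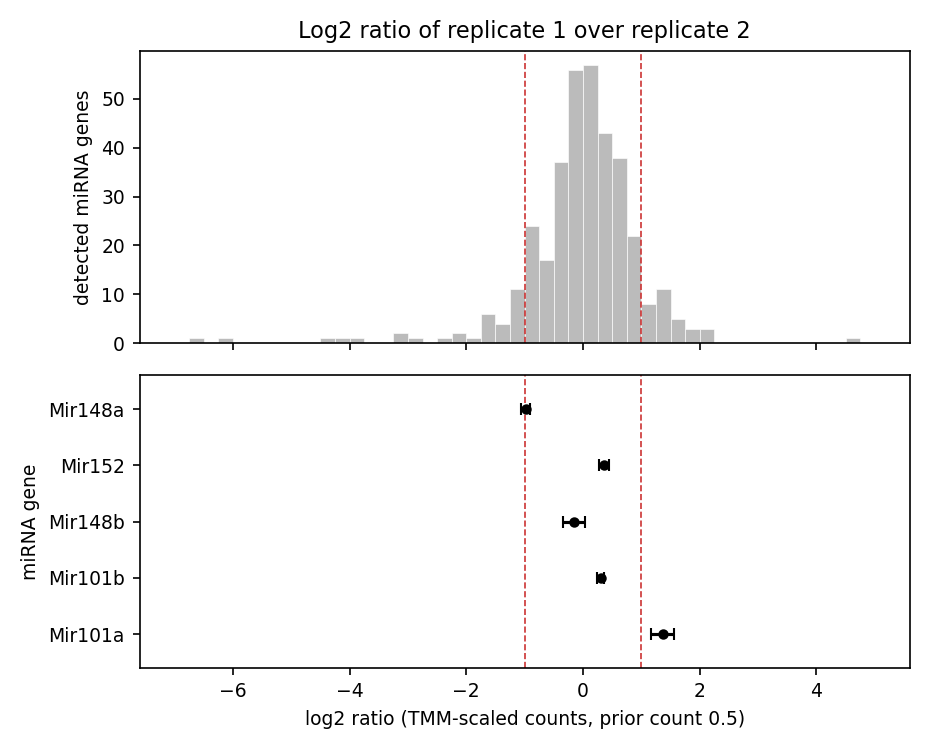
Upper panel, number of detected miRNA genes by log2 ratio of replicate 1 over replicate 2. Lower panel, the same ratio for each of the 5 genes with its exact 95% counting interval, and dashed lines at 2-fold. Mir101a lies beyond the upper line at 1.37, and the interval of Mir148a, at -0.98, crosses the lower line.

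The genes nearest to each member in level over the 2 libraries, by distance in log2(CPM + 1), were found among the 358 detected genes. They were Mirlet7c-2 (distance 0.12) and Mir615 (0.17) for Mir148a, and Mir669o (0.13) and Mir376b (0.18) for Mir148b. Mirlet7c-2 is a numbered copy, with Mirlet7c-1 as its partner. Reads that map to several places were not counted, so its level and its closeness to Mir148a are uncertain. Mir132 (0.07) and Mir542 (0.11) were nearest to Mir152, and Mir181c (0.10) and Mir872 (0.16) to Mir101b. Mir101a had no close match beyond Mir222 (0.23), since the next gene, Mir496a, was at 0.55. None of the nearest genes was another member, so members of a family were not each other's closest neighbours in level. A distance over 2 libraries describes level alone.

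The enzymes' messenger RNAs were searched for the reverse complement of each seed in their 3′ untranslated regions (3′ UTRs), on the sense strand only, using the longest complete 3′ UTR of each gene in GENCODE M21. The letters searched were TGCACTG for miR-148, GTACTGT for miR-101a and TACTGTA for miR-101b, and the last pair overlap by 6 bases. The 3′ UTR of Dnmt1, 312 bases long, held 1 match to the miR-148 seed and 0 to the miR-101 seeds. Of 1698 other 3′ UTRs within 20% of its length, 3.06% held the miR-148 match. The 3′ UTR of Ezh2, 402 bases long, held 2 matches to the miR-101a seed, 1 to the miR-101b seed and 0 to the miR-148 seed. Of 1798 3′ UTRs of like length, 2.67% held the miR-101a match and 2.61% the miR-101b match. Each share counts 3′ UTRs with at least 1 match. Dnmt1 and Ezh2 were searched as known targets of these families, so the shares describe how common the letters are and test nothing. The sites are shown with the match in capitals, since they are where the seeds above would pair:
Dnmt1, chr9:20907491-20907513, minus strand: acccagagccccacgTGCACTGa
Ezh2, chr6:47530475-47530497, minus strand: cttcaggaaccttgaGTACTGTg
Ezh2, chr6:47530420-47530442, minus strand: ttctgaatttgcaaaGTACTGTa

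The Dnmt1 match started at base 23 of its 3′ UTR and is followed by an A, as are the miR-101b match of Ezh2 and the second of its miR-101a matches, which lie 1 base apart. The first Ezh2 match, at base 59, holds the miR-101a letters only. Eed, another PRC2 subunit, had 1 miR-101a match in 410 bases, and 2.86% of 1820 3′ UTRs of like length had it. Suz12, also of PRC2, had 0 matches to any of the 3 seeds in 1933 bases. Dnmt3b, an enzyme that sets DNA methylation anew, had 0 in 1331 bases. Dnmt3a, of the same kind, had 1 miR-101a and 2 miR-101b matches but 0 for miR-148 in 6696 bases, a length at which 36.5%, 46.0% and 41.8% of 493 like 3′ UTRs held the miR-101a, miR-101b and miR-148 matches. A match describes letters and not a working site, and coding sequence was not searched.

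Other miRNA genes reported to target DNA methyltransferases or PRC2 subunits were read from lists written with earlier results of these data known. The first list covers genes reported to target Dnmt1, Dnmt3a or Dnmt3b, while the miR-148 family is known for DNMT1. The second covers Ezh2 or another PRC2 subunit, while the miR-101 family is known for EZH2. The lists are thus wider in target than the families set beside them. The miR-148 genes, with 0.148% of counts in replicate 1 and 0.143% in replicate 2, stood below the sum of the listed genes. Of 7 other DNA methyltransferase regulators all 7 were detected, and they held 4.94% of counts in replicate 1 and 3.36% in replicate 2. Nearly all of that came from Mir143, a smooth muscle miRNA gene, at 45426 CPM in replicate 1 and 30816 CPM in replicate 2. Mir29a, whose family represses Dnmt3a and Dnmt3b, was at 1631 CPM in replicate 1 and 1191 CPM in replicate 2. Mir342 was at 970 CPM in replicate 1 and 725 CPM in replicate 2, and Mir185 at 914 CPM in replicate 1 and 578 CPM in replicate 2. Of these 7 genes 0 passed 2-fold between the libraries, where 17.9% of all detected genes did, and 7 genes are too few to set the list apart. They had a median log2 ratio of 0.07, against a median of 0.06 over all detected genes.

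The miR-101 genes held 0.153% of counts in replicate 1 and 0.0859% in replicate 2. Of 12 other PRC2 regulators 9 were detected, with 2.42% in replicate 1 and 2.62% in replicate 2. Mir26b, of a family known to repress Ezh2, supplied most of the counts of that list, at 21701 CPM in replicate 1 and 23273 CPM in replicate 2. Mir214 was at 1415 CPM in replicate 1 and 2233 CPM in replicate 2, and Mir137 at 679 CPM in replicate 1 and 313 CPM in replicate 2. Of the 9 detected genes 1 was called higher in replicate 1 (Mir26a-1, log2 ratio 4.54), 2 lower (Mir200b at -3.90 and Mir214 at -1.09) and 6 were within 2-fold, with a median of 0.32. Over all detected genes 8.66% were called higher and 9.22% lower. The 3 Mir124a copies had 0 counts in both libraries. Numbered copies such as Mir124a-1, Mir26a-1 and Mir29b-1 share mature sequences with their partners, so reads of them may have been set aside and their low values are uncertain.

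**Figure D5:**
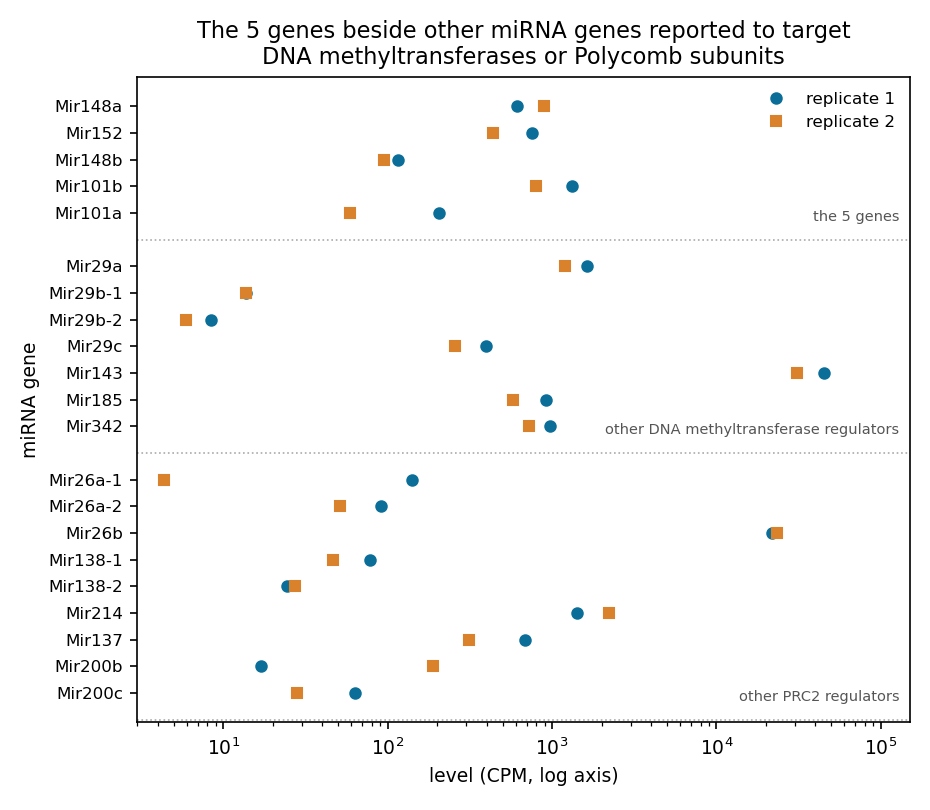
CPM (log axis) in replicate 1 (circles) and replicate 2 (squares) of the 5 genes and of the detected genes of both lists. Mir143 and Mir26b lie far to the right in both libraries, at 21701 CPM or more, while Mir101b, Mir148a and Mir152 share the range of Mir29a, Mir185, Mir342, Mir214 and Mir137.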

How the data were processed

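For each of 2 libraries the authors deposited a table of raw, unnormalized counts by miRNA gene. Build mm10 and annotation GENCODE M21 are named in their deposited text notes. How reads were trimmed, aligned and counted is not given in the sources used here. Of 3 undefined count columns, the strand column with more miRNA counts was used, and 4 summary lines stayed out of library sizes. All 2202 gene identifiers matched the annotation. The members, gene lists and rules for named genes were chosen with earlier results of these data known. Named were the members, seed relatives, hosts, the 2 nearest genes in level and list members.

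From the deposited counts, CPM, shares with Wilson intervals and ratios with Clopper-Pearson intervals were computed. Log2 ratios used TMM factors from the detected genes (1.16 for replicate 1, 0.862 for replicate 2) and a prior count of 0.5. A design of 1 group allowed no quasi-likelihood test, and edgeR gave only the dispersion. The ratio code was checked on simulated data with counting error alone. These held no spread between replicates and no gap as large as that of Mir122. That check covers the code and not how the scaling behaves in these libraries. No molecular identifiers are stated, so each interval covers counting error alone. Sequences came from RefSeq (GRCm38.p6) and GENCODE M21 transcripts. Tools were Python 3.11.15, scipy 1.17.1, R 4.3.3, edgeR 4.0.16 and DESeq2 1.42.0.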

Additional observations from a re-analysis of the deposited data

How the results depend on the processing

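No paired analysis was possible because the series holds 1 group. Detection of all 5 genes held at minimums of 1 and 100 counts and in the column counted without regard to strand, which gave the members the same counts. With 2 libraries, leaving one out gives the value of the other and tests no stability: the Mir101a share of 0.0131% became 0.00586% without replicate 1 and 0.0204% without replicate 2, and the miR-101 share ran from 0.0859% to 0.153%. The miR-148 share of 0.145% became 0.192% in the column without strand, whose total lacks ambiguous reads, 0.165% with Mir122 left out and 0.0583% of all reads. The miR-101 share of 0.120% became 0.158% in the column without strand, 0.132% with Mir122 left out and 0.0465% of all reads. The count of 64 genes past 2-fold, of 358 tested, became 155 of 588 at a minimum of 1 count and 37 of 246 at 100 counts. It became 97 of 358 under library totals. The minimum sets how many genes are tested, so counts at different minimums are to be read against the number tested. Library totals moved the median log2 ratio of all genes to 0.48, against 0.06 with TMM, and split the calls into 78 higher and 19 lower, against 31 and 33. Under them Mir148b turned to 0.28, Mir148a stood at -0.55 and Mir101a at 1.80. Mir148a passed 2-fold at -1.01 in the column without strand and at -1.004 with TMM factors over all genes, a setting chosen after seeing the data. Mir101a was called in every setting tried, from 1.34 to 1.80. Depth limits Mir101a and Mir148b most, and 2 libraries give no test of the spread between animals.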
